A study of Mus musculus with 6 samples.

Results

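Chemokines are small secreted proteins that direct the movement of leukocytes, and chemokine receptors are the surface proteins that read them. The 53 genes described here, 31 ligands and 22 receptors, were chosen by name, out of 21755 protein-coding genes on the autosomes and the X chromosome. For each gene, sites of changed chromatin accessibility were collected within the gene body or 20 kb either side of it, and a site near several of the genes was counted once. Of the 53 genes, 52 were annotated as protein-coding, while Cxcl11 is a polymorphic pseudogene in the C57BL/6J reference. The names given to the sites below are those of nearby genes, and a nearby site is not evidence that it regulates the gene.

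Accessibility was read by ATAC-seq, a method that marks open DNA by letting a transposase insert sequencing adapters into it. Monocytic myeloid-derived suppressor cells (M-MDSCs), immature monocytes of tumor-bearing animals that restrain T cells, were sorted from tumors by the surface markers CD11b+Ly-6Chi Ly-6G-. The tumors were grown from Hepa 1-6 cells, a mouse hepatoma line, injected into the livers of female wild-type C57BL/6J mice aged 6 to 8 weeks. The vehicle, MS-275 and CXD101 groups had 2 libraries each. MS-275 and CXD101, inhibitors of the histone deacetylases HDAC1, HDAC2 and HDAC3, were each given intraperitoneally at 5 mg/kg daily for 10 days. All groups shared the strain, tumor and sort, and the dose and schedule of the inhibitors were the same. The number of animals behind each library was not given in the sources used here. The whole animal was treated, so a change in the sorted cells and a change in which cells entered the tumor cannot be told apart.

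Most chemokines fall into the CC and CXC families, named for the spacing of their leading cysteines, and their genes lie in clusters left by repeated duplication. Their receptors couple to G proteins of the inhibitory class and turn a gradient of ligand into directed movement. Ccr2, the receptor for Ccl2, carries monocytes from the bone marrow to inflamed tissue and tumors. Cxcr4 and its ligand Cxcl12 hold immature myeloid cells in the marrow, and Cxcr2 with its ligands Cxcl1, Cxcl2, Cxcl3 and Cxcl5 directs neutrophils.

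Reads of a group's libraries were merged for peak calling, and each of 6 lists holds the sites where the pooled reads of a named group exceeded those of another. The lists are called here MS-275 gained (MS-275 above vehicle), MS-275 lost (vehicle above MS-275), CXD101 gained, CXD101 lost, MS-275 over CXD101 and CXD101 over MS-275. They held 11800 peaks in all, from 2 peaks in CXD101 over MS-275 to 8480 in MS-275 gained. Every peak passed a q-value of 0.05 in the Poisson test of the peak caller MACS2. That test weighs counting error in pooled reads only, there is no value per library, and no difference below has a replicate check. Pooled depth differed little, with the MS-275 and CXD101 groups at 1.144 and 1.137 times the vehicle depth. A tag below is a sequenced read counted over the summit, the base of a peak with the most reads, and levels were scaled to the shallower group.

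Chemokine and receptor genes drew changed sites in 4 of the 6 lists. There were 47 such peaks, and 22 of the 53 genes had at least 1. Nearby sites gained under MS-275 made up 30 of them. None was gained under CXD101, where only 0.97% of all protein-coding genes had such a site. The sequences of 9 sites are given here, chosen because they had the largest fold, lay closest to a member start, separated the inhibitors, were lost, or held a match to a binding motif. Each is the 201 bases around the summit, read 5′ to 3′ on the plus strand of mm10 (GRCm38). Capitals mark exact matches, on either strand, to the motifs listed further below.
Cxcr4, 5.01 kb upstream, MS-275 gained, chr1:128597200-128597400, with a PU.1 match in capitals: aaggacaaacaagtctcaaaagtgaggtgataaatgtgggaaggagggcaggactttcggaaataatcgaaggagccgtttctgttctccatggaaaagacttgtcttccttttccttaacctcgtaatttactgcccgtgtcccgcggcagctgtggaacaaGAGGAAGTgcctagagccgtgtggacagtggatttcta
Cxcl3, 0.169 kb upstream, MS-275 gained, chr5:90785834-90786034, without a match: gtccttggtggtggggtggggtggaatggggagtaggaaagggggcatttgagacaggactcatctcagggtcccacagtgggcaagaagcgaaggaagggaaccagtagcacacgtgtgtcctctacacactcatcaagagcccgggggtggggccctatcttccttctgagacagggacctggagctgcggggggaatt
Cxcl9, 9.53 kb downstream, MS-275 gained and MS-275 over CXD101, chr5:92318445-92318645, without a match: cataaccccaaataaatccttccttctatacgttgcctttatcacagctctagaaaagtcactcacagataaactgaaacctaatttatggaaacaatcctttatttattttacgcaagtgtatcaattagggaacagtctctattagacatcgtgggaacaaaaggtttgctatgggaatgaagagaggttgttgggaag
Ccl11, 14.6 kb downstream, MS-275 gained and MS-275 over CXD101, chr11:82072316-82072516, without a match: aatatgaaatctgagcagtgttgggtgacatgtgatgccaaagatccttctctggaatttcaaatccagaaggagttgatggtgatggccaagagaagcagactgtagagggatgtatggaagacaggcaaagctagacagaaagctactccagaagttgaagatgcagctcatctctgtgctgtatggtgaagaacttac
Ccl3, 9.94 kb downstream, MS-275 gained and MS-275 over CXD101, chr11:83639316-83639516, with STAT, AP-1 and STAT matches in capitals: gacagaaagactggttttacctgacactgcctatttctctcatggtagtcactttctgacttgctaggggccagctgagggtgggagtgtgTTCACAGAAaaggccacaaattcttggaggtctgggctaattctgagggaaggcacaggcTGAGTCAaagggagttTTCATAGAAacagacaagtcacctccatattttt
Ccr4, intron, MS-275 gained, chr9:114502813-114503013, with an AP-1 match in capitals: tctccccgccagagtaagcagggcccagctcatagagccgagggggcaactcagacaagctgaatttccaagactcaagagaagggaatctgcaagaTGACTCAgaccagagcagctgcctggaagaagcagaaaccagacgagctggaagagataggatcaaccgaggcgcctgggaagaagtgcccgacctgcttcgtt
Ackr3, 21.7 kb downstream, MS-275 lost, chr1:90225577-90225777, with a PU.1 match on the minus strand in capitals: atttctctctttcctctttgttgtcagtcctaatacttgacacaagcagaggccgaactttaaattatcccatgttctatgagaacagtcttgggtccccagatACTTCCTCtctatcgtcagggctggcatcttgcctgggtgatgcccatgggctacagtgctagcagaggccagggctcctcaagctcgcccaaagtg
Cx3cr1, intron of the long GENCODE model, MS-275 lost, chr9:120012967-120013167, with an AP-1 match at its edge in capitals: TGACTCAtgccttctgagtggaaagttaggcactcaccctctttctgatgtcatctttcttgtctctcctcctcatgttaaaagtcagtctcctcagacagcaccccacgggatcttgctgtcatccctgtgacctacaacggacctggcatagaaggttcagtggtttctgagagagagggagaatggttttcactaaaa
Ccl9, 4.85 kb upstream, CXD101 lost, chr11:83583384-83583584, without a match: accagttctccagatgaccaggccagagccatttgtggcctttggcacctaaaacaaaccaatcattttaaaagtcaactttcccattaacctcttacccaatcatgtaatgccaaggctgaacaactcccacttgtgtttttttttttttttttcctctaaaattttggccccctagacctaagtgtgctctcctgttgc

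In the MS-275 gained list, 20 of the 53 genes (37.7%) had at least 1 peak, beside 18.8% of all protein-coding genes under the same windows. The lost list held 3 of the genes (5.66%), beside 2.93% of coding genes. For CXD101, 0 genes had a gained peak, beside 0.97% of coding genes, and 3 (5.66%) had a lost peak, beside 3.65%. In the direct comparison, 8 genes (15.1%) lay near a site higher in the MS-275 group, beside 6.68%, and 0 near a site higher in the CXD101 group, beside 0.0138%. In percentage points, the gap between members and coding genes was widest for MS-275 gained, followed by MS-275 over CXD101, the lists with the most peaks. The lost shares were above those of coding genes but rest on only 3 genes each. Cx3cr1, counted in both lost lists, depends on a long gene model, and for CXD101 Ccl6 and Ccl9 share 1 peak. With 50 kb either side the CXD101 lost share (5.66%) was below that of coding genes (6.34%), as was that of MS-275 over CXD101 in the gene or 5 kb upstream (1.89% beside 3.6%). No test was made of these shares, since clustered genes share peaks and are not replicates.

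**Figure D1:**
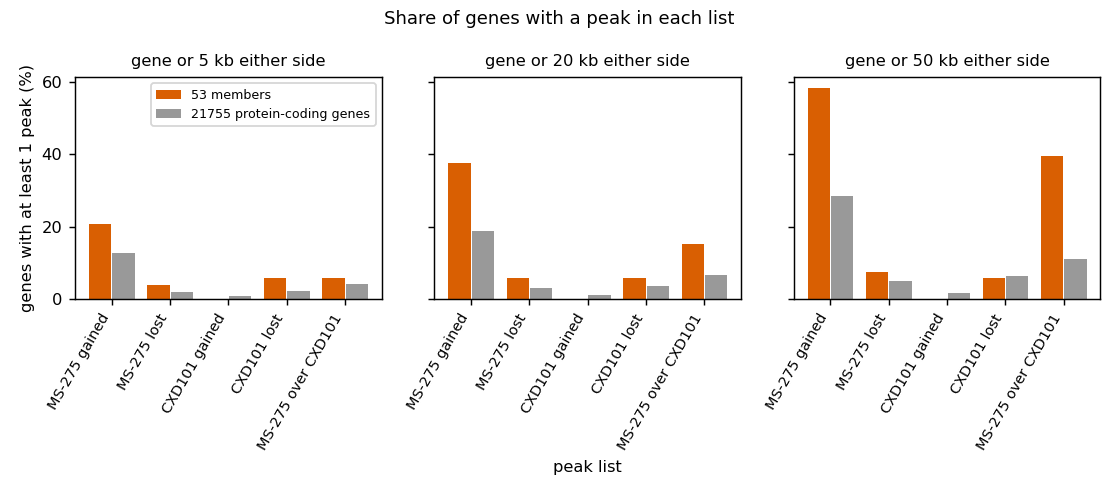
Bars give the percent of the 53 member genes (orange) and of 21755 protein-coding genes (grey) with at least 1 peak in each of 5 lists, within the gene or 5, 20 or 50 kb either side. For MS-275 gained the member share was 20.8% against 12.8% at 5 kb, 37.7% against 18.8% at 20 kb and 58.5% against 28.5% at 50 kb.

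The windows of the members were not longer than those of other genes, with a median of 45.1 kb beside 57.4 kb for coding genes. Per megabase of merged window, 12.5 MS-275 gained peaks were found at the members and 4.54 at coding genes. The lost peaks of MS-275 numbered 2.08 and 0.408 per megabase, those of CXD101 1.25 and 0.408, and the MS-275 over CXD101 peaks 3.74 and 0.889. A few loci carried much of this density. The 53 genes formed 36 separate loci, of which 14 held an MS-275 gained peak, and 13 of the 30 peaks lay in 3 loci. The Cxcr4 locus alone held 6, and the Cxcl5, Ppbp, Pf4 and Cxcl3 locus held 4. Close to the genes the excess was smaller, with 13.2% of members and 11.7% of coding genes holding an MS-275 gained peak in the gene or the 5 kb upstream of it.

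**Figure D2:**
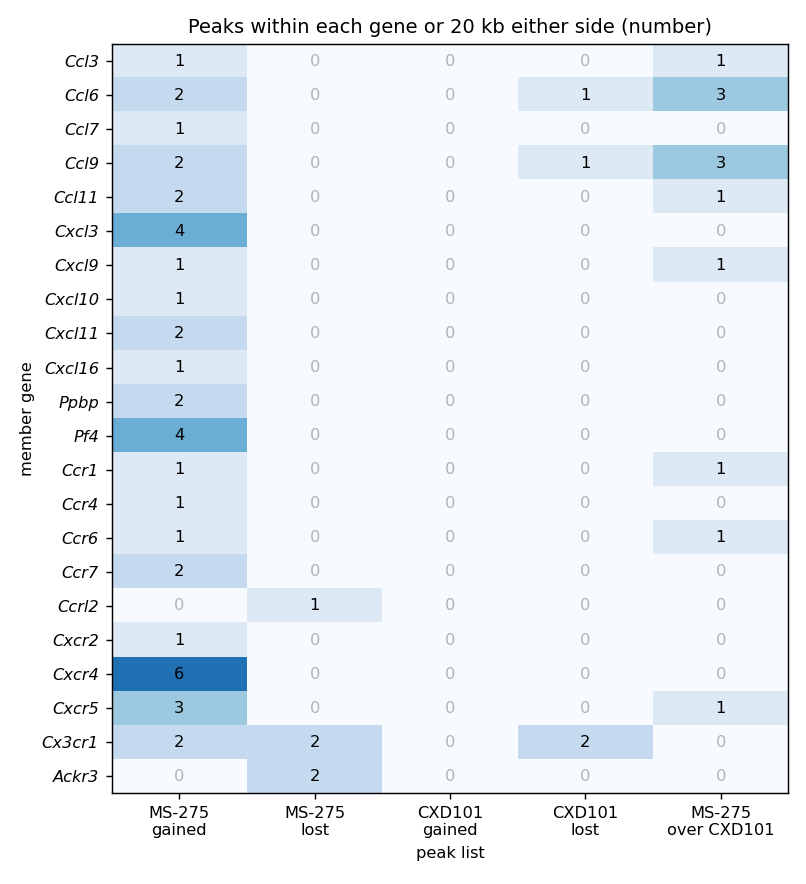
Number of peaks of 5 lists (columns) within the gene body or 20 kb either side of each of the 22 genes with at least 1 peak (rows); neighbours such as Ccl6 and Ccl9, or Cxcl3, Ppbp and Pf4, count the same peaks. The MS-275 gained column is filled for 20 genes, with 6 peaks at Cxcr4. The CXD101 gained column is 0 for every gene, in a list that reached only 0.97% of coding genes.

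Gained sites at the members were of ordinary size for their list. The median fold enrichment, the ratio of treated to control level with a pseudocount of 1 added to each, was 2.79 at the 30 member peaks and 2.88 over all 8480. The median level was 47.7 tags under MS-275 and 16.5 under vehicle at the members, and 49.8 and 15.8 over the list. Member folds ran from 1.87 to 4.63. Gained sites at the members were thus more numerous per megabase than at coding genes, and no larger.

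**Figure D3:**
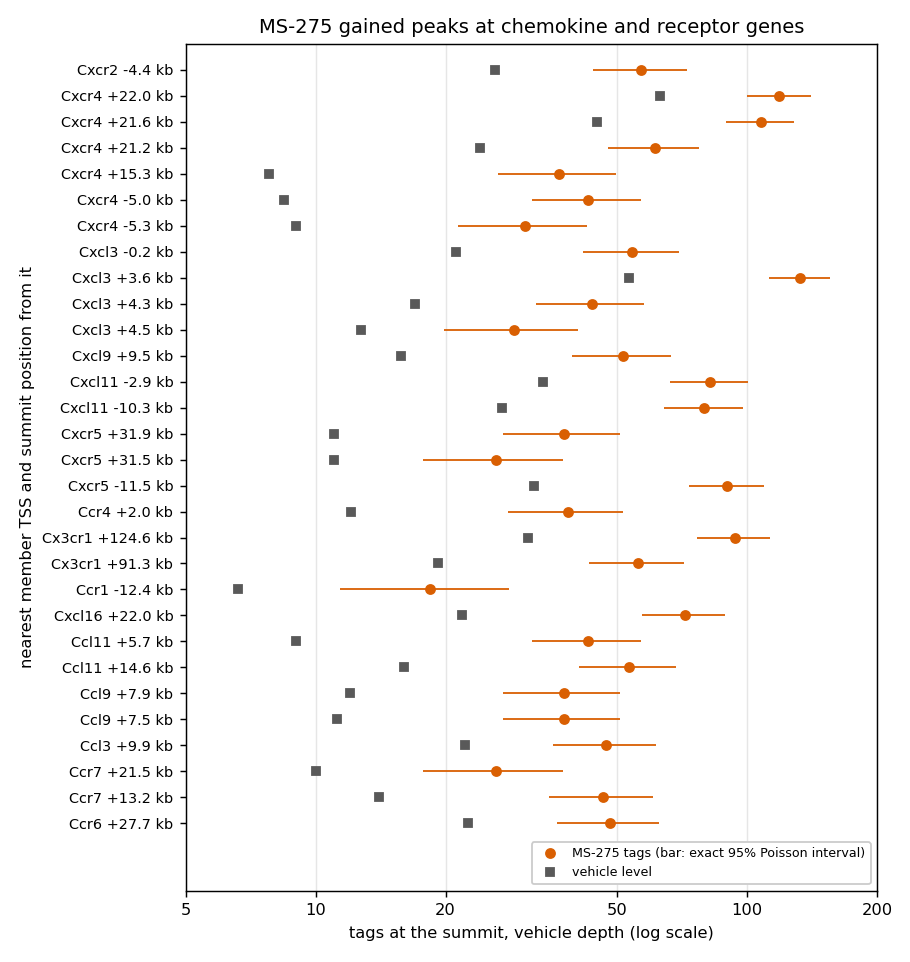
Each line is 1 of the 30 MS-275 gained peaks, named by the nearest member transcription start site (TSS) and the summit's position from it (downstream positive); the log axis gives pooled vehicle level (grey squares) and MS-275 tags with the exact 95% Poisson interval (orange). Every interval lies above the vehicle level, which follows from the choice of these peaks by a Poisson test on the same reads. The vehicle levels run from 6.6 tags at Ccr1 to 63 at Cxcr4.

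Among the inflammatory CC ligands of the chromosome 11 cluster, which attract monocytes, eosinophils and lymphocytes, 5 of 10 genes (beside 18.8% of coding genes) lay near an MS-275 gained peak, through 5 peaks. Ccl11 (eotaxin, which attracts eosinophils through Ccr3) had 2 of them. The stronger, chr11:82063370-82063577, lay 5.68 kb downstream of its start and was also within 20 kb of Ccl7, a monocyte attractant that binds Ccr2. Its level was 9 tags in the vehicle group and 42.8 (95% Poisson interval 31.7 to 56.6) in the MS-275 group, a fold enrichment of 4.38 with a −log10 p of 15.6. The other, chr11:82072284-82072514, went from 16 to 53.3 tags (fold 3.20, −log10 p 13.1).

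Both of these Ccl11 sites were intergenic and lay beyond the end of the gene. Ccl6 and Ccl9, myeloid attractants found in rodents that act through Ccr1, shared a pair of gained sites 7.91 and 7.52 kb downstream of the Ccl9 start. These read 12 and 11.2 tags under vehicle, and both read 37.6 under MS-275, with folds of 2.97 and 3.16. Ccl3, a ligand of Ccr1 made by activated monocytes and macrophages, had 1 site 9.94 kb downstream that went from 22.2 to 47.2 tags (fold 2.08). Ccl2, Ccl4, Ccl5, Ccl8 and Ccl12 had none in any list. With the RefSeq gene models in place of GENCODE, Ccl4, whose RefSeq model is longer, also reached the Ccl3 site.

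The other CC ligands, Ccl17, Ccl20, Ccl22, Ccl24, Ccl25 and Ccl28, had no peak in any list. These 6 genes are known largely from dendritic cells, macrophages or epithelium, and their products draw lymphocytes, dendritic cells or eosinophils. Their nearest MS-275 gained peak lay 101 kb (Ccl28) to 318 kb (Ccl20) away. Cx3cl1, the ligand of Cx3cr1, and Xcl1, a ligand made by T and NK cells, were also without a peak.

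The neutrophil-attracting CXC ligands and platelet chemokines were reached at 3 of 6 genes (beside 18.8% of coding genes) through 4 peaks, all nearest to Cxcl3, a ligand of Cxcr2. The peak with the highest level and significance of any member lay 3.6 kb downstream of the Cxcl3 start, at chr5:90789603-90789822, just past the gene's end. It held 53.2 tags in the vehicle group and 133 (113 to 156) in the MS-275 group, with a fold of 2.47 and a −log10 p of 19.5. A promoter peak 0.169 kb upstream, at chr5:90785836-90786100, went from 21.2 to 54.2 tags (fold 2.49, −log10 p 9.16). It was the closest gained peak to the start of any member, and its sequence is given above.

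A further interval at Cxcl3 held 2 summits, at 43.7 and 28.9 tags against vehicle levels of 17 and 12.7, which lay closer to the start of Cxcl15, a lung chemokine that is not among the 53. The weaker of these was the least significant gained peak of the set, with a −log10 q of 1.64 where the list ends at 1.3. Ppbp and Pf4, the platelet chemokines, were counted only because the same sites fell within 20 kb of them. Cxcl1, Cxcl2 and Cxcl5 had no peak, and the nearest gained site to Cxcl1 was 101 kb away.

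Each of the 3 interferon-inducible CXC ligands, which bind Cxcr3 and draw T and NK cells, lay near an MS-275 gained peak. Of coding genes 18.8% did, and the 3 ligands form 1 locus, so they are not independent calls. At Cxcl9 the site was 9.53 kb downstream of the start, between Cxcl9 and Sdad1, and went from 15.8 to 51.6 tags (fold 3.13, −log10 p 12.3). The site nearest the Cxcl11 start, 2.93 kb upstream at chr5:92368283-92368489, read 33.6 and 82.2 tags (fold 2.40, −log10 p 12.3). It was the only one within 20 kb of Cxcl10, at 19.4 kb from that gene. Another Cxcl11 site, 10.3 kb upstream at chr5:92375645-92375850, read 27 and 79.6 tags (fold 2.88, −log10 p 15.9). Both Cxcl11 sites lay in introns of Art3, which overlaps this interval, and the farther was only 1235 bp from an Art3 start.

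Of the other CXC ligands, Cxcl16, a membrane-bound ligand of Cxcr6, had 1 gained peak, and Cxcl12, Cxcl13 and Cxcl14 had none. The Cxcl16 peak rose from 21.8 to 71.7 tags (fold 3.19, −log10 p 16.7) but was 22 kb from the Cxcl16 start and 121 bp from a start of Arrb2, the gene of beta-arrestin 2, which takes activated chemokine receptors out of signalling. Altogether, the 31 ligands had 12 genes near 13 gained peaks and no peak lost under MS-275.

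Receptors had 17 MS-275 gained peaks at 8 of 22 genes, beside 13 at 12 of 31 ligands. That is more peaks per gene, but a similar share of genes, where 18.8% of coding genes had a gained peak. Clustered ligands share peaks that were counted once, and 2 of the receptor peaks lie in the long Cx3cr1 model. Cxcr4 held 6 of the 17 receptor peaks in 5 intervals, and for all 6 the nearest coding start was that of Cxcr4. The largest fold of any member was at an interval 5 kb upstream, chr1:128597147-128597685, with a summit of 42.8 tags (31.7 to 56.6) against 8.46 in the vehicle group, a fold of 4.63 and a −log10 p of 16.5. Its other summit, 5.28 kb upstream, read 30.6 tags against 9 (fold 3.16). The interval touched the 5 kb promoter window although both summits lay just outside it.

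On the far side of Cxcr4, past the gene's end, a group of 3 peaks within 21.2 to 22 kb of the start had the highest vehicle levels, 24, 45 and 63 tags. They reached 61.2, 108 and 119 tags under MS-275, the middle with a −log10 p of 14.9. Between them and the gene, at chr1:128576898-128577136, a site 15.3 kb downstream went from 7.8 to 36.7 tags (fold 4.29, −log10 p 13.4). The Cxcr4 sites therefore ran from low vehicle levels with folds above 4 to high levels with a fold of 1.87.

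Cxcr5, which reads Cxcl13 and guides B cells to follicles, had 3 gained summits. That at chr9:44537876-44538152, in an intron of the GENCODE model and 11.5 kb upstream of the nearest start, went from 32 to 90.1 tags (fold 2.76, −log10 p 16.9). The other pair shared an interval in an intron of Bcl9l, 31.9 and 31.5 kb from the Cxcr5 start, and read 37.6 and 26.2 tags against 11 at each. Cxcr2, the neutrophil receptor, had a promoter peak 4.43 kb upstream at chr1:74149460-74149682, with 26 tags under vehicle and 56.8 (43.9 to 72.4) under MS-275 (fold 2.14, −log10 p 6.99). Cxcr1, Cxcr3, Cxcr6 and Xcr1 had no peak.

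At Cx3cr1, the fractalkine receptor of patrolling monocytes, sites moved in both directions, but their link to the gene rests on the annotation. The GENCODE model spans 168 kb and takes in several other genes, while the RefSeq model spans 19.6 kb, and none of the Cx3cr1 peaks lies within 20 kb of the latter. The gained peak at chr9:119943577-119944049, also in an intron of Ttc21a, held 31 tags under vehicle and 93.6 (76.7 to 113) under MS-275 (fold 2.95, −log10 p 19.1). Another at chr9:119976862-119977061, only 363 bp from a start of Csrnp1, went from 19.2 to 56 tags (fold 2.82). Their nearest coding starts were those of Ttc21a, 6039 bp away, and Csrnp1, while the Cx3cr1 start was 125 and 91.3 kb away.

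The CC receptors had 5 gained peaks at 4 of 10 genes, beside 18.8% of coding genes. Ccr7, which brings dendritic cells and T cells to lymph nodes, had 2, at 46.3 tags against 14 (13.2 kb downstream, fold 3.16) and 26.2 against 10 (21.5 kb, fold 2.48). Ccr4, the receptor for Ccl17 and Ccl22, had an intronic peak 2 kb downstream of its start, at chr9:114502803-114503072, which went from 12.1 to 38.5 tags (fold 3.02, −log10 p 9.22). Ccr6, the receptor for Ccl20, had a site 27.7 kb downstream that read 22.6 and 48.1 tags.

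Ccr1, the receptor for Ccl3 and several other inflammatory ligands, had the member site with the lowest level. It lay 12.4 kb upstream of Ccr1 but nearer to Ccr1l1, a Ccr1 paralog, and read 6.6 tags under vehicle and 18.4 (11.4 to 28.1) under MS-275 with a −log10 q of 1.65, close to the end of the list. Reads from near-identical copies can be hard to place in such a locus. Ccr3, Ccr8, Ccr9 and Ccr10 had no peak.

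Ccr2 (ENSMUSG00000049103.14, chr9:124101950-124113557) is the receptor at the centre of the study. It had no peak in any of the 6 lists within the gene or 20 kb either side. The nearest MS-275 gained site was 34.2 kb from the gene and the nearest site of MS-275 over CXD101 121 kb. Lost sites were farther, at 1647 kb for MS-275 and 2706 kb for CXD101, and the nearest CXD101 gained site was 8550 kb away. Its principal ligands Ccl2 and Ccl12 were likewise without a peak, while Ccl7 had 1. Since the lists hold only sites that passed the threshold, they show that no difference was called at Ccr2, and give no level of accessibility there in any group.

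Sites lost under MS-275 were few and lay at receptors, 5 peaks in 3 intervals. Ccrl2, an atypical receptor that binds chemerin without signalling, had a promoter site 1.74 kb upstream at chr9:111059084-111059287, which held 79 tags (62.5 to 98.5) under vehicle and 33.2 under MS-275 (fold 2.34, −log10 p 11.3). Ackr3, an atypical receptor that clears Cxcl12, had an intergenic interval past the gene's end, chr1:90225604-90226023, with summits of 28 and 35 vehicle tags against 11.4 and 9.62 under MS-275. Their −log10 p values were 5.07 and 10.2, and the weaker had a −log10 q of 1.75. The other atypical receptors, Ackr1, Ackr2 and Ackr4, had no peak.

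An interval in the long Cx3cr1 model, chr9:120012673-120013224, was lost under both inhibitors. In the MS-275 lost list its summits held 46 and 52 vehicle tags against 13.1 and 12.6 (folds 3.33 and 3.90, −log10 p 12.4 and 16.7). In the CXD101 lost list the same interval held 41 and 52 vehicle tags against 12.8 under CXD101 at each summit (folds 3.03 and 3.83, −log10 p 10 and 16.3). The levels under the inhibitors were near each other, but both comparisons used the same vehicle reads. It was the only member interval in lists of the same direction for both inhibitors, and it lay 55.2 kb from the Cx3cr1 start and 5431 bp from that of Xirp1.

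The remaining CXD101 lost peak was at the Ccl9 promoter, 4.85 kb upstream at chr11:83583274-83583793, in an intron of the noncoding gene E230016K23Rik and within 20 kb of Ccl6. It held 35 tags (24.4 to 48.7) under vehicle and 10.6 under CXD101 (fold 3.12, −log10 p 9.17). In the direct comparison the same interval was higher with MS-275, at 27.8 tags against 8 (fold 3.20). At vehicle depth these direct values come to 24.5 tags for MS-275 and 7.03 for CXD101, but their summit lies 110 bp from that of the vehicle value, so the levels come from different bases. The site was not in the MS-275 lost list.

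The inhibitors, given at the same dose and schedule, differed at 9 member peaks in the direct comparison, all higher with MS-275. Of these, 8 (88.9%) overlapped an MS-275 gained peak, beside 72.2% of all 1650 peaks of the direct list. The remaining peak was the Ccl9 promoter site. The clearest was the Ccl11 site 14.6 kb downstream, with 60.6 tags (46.4 to 77.9) for MS-275 and 14.8 for CXD101 (fold 3.90, −log10 p 18.6). The Cxcl9 site read 60.6 and 20.6 tags (fold 2.85, −log10 p 12.3).

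The Ccl9 pair read 45.7 against 13 (fold 3.34, −log10 p 12) and 42.8 against 13.6 (−log10 p 9.79). Sites at Cxcr5, Ccr6, Ccl3 and Ccr1 had −log10 p values of 7.35, 6.68, 6.19 and 4.42, with folds from 2.02 at Ccl3 to 2.39 at Cxcr5. These sites were at ligands of the chromosome 11 cluster, at Cxcl9 and at 3 receptors, and none lay at Cxcr4 or Cxcl3, where the MS-275 gains were most numerous. As a share, 9 of the 30 MS-275 gained member peaks (30%) overlapped a peak of the direct list, beside 17.4% of all 8480, and the weaker Cxcr5 summit did so only through its shared interval.

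**Figure D4:**
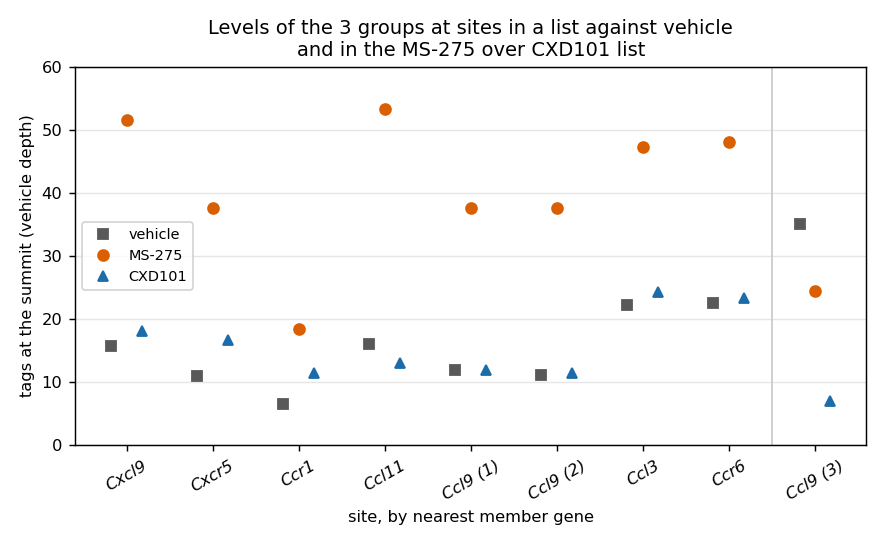
Pooled levels at vehicle depth (tags, linear axis from 0) for vehicle (squares), MS-275 (circles) and CXD101 (triangles) at 8 MS-275 gained sites and, right of the line, the CXD101 lost Ccl9 promoter site; CXD101 levels come from the direct list and, for the last site, so does the MS-275 level. At the 8 gained sites CXD101 lies nearer to vehicle than to MS-275, which largely follows from their choice by the direct list. At Ccr1 and at the last site the levels come from summits 180 and 110 bp apart.

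At those 8 gained sites the CXD101 level, taken from the direct comparison and scaled to vehicle depth, could be set beside the level of vehicle. At Cxcl9 the levels of vehicle, CXD101 and MS-275 were 15.8, 18.1 and 51.6 tags, and at the Ccl11 site 16, 13 and 53.3. At Ccl3 they were 22.2, 24.3 and 47.2, and at Ccr6 22.6, 23.4 and 48.1. At each of the 8 the CXD101 level was nearer to that of vehicle than to that of MS-275, and at the Ccl9 pair it differed from vehicle by less than 1 tag. At Ccr1 the direct summit lay 180 bp from the gained summit, so its levels of 6.6, 11.4 and 18.4 tags come from different bases. These sites were chosen by being higher with MS-275 in both lists. Their direct folds were 2.02 or more, which by itself places CXD101 nearer to vehicle where the summits coincide. The nearness to vehicle is therefore no separate result.

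At 21 other MS-275 gained member peaks neither other list gave a CXD101 level, and the weaker Cxcr5 summit lay outside the peak of the direct list, so whether CXD101 raised these is not known. The depth set how large a gain had to be to enter the CXD101 list, whose lowest −log10 p was 4.5. At the vehicle levels of the 30 sites, CXD101 would have needed 1.55 to 2.93 times the vehicle level, with a median of 2.13. The level reached by MS-275 would have passed at 27 of the 30. Smaller gains under CXD101 were not detectable at this depth.

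**Figure D5:**
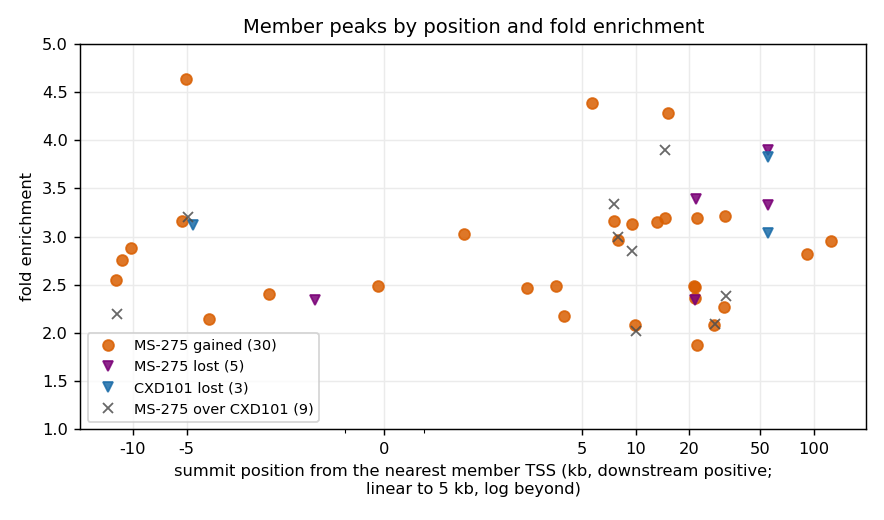
Fold enrichment of the 47 member peaks against the summit's position from the nearest member TSS (kb, linear to 5 kb and log beyond), with circles for MS-275 gained, triangles for lost peaks and crosses for MS-275 over CXD101. Of the 30 gained peaks, 22 lie downstream and 8 upstream, and 7 lie within 5 kb. The windows reach 20 kb upstream of a gene, but its body and a further 20 kb downstream, which favours downstream positions.

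The distance of gained sites from member starts depends on the windows, which take in the gene body and 20 kb either side. Distances and places over the whole list are not given here, so the values below show no preference of the members. Of 30, 7 were within 5 kb, 13 between 5 and 20 kb and 10 beyond, with a median of 10.9 kb. By annotation, 21 were intergenic, 9 intronic and none exonic, and 5 touched the 5 kb upstream of a member start, at Cxcr2, Cxcr4, Cxcl3 and Cxcl11. The nearest coding start was that of a member for 18 of the 30. The rest were nearest to a neighbour such as Bcl9l, Arrb2, Art3 or Cxcl15, and nothing in these lists assigns a site to a gene.

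Short motifs were searched on both strands in the 201 bases around each summit, and a match describes letters and not binding. AP-1 (TGACTCA or TGAGTCA), PU.1 (GAGGAAGT), C/EBP (TTGCGCAA, TTGCACAA or TTGTGCAA), STAT (TTCNNNGAA) and RUNX (TGTGGTTT or TGTGGTTA) were spelled exactly, and NF-kB, interferon response and CTCF motifs were searched as well. AP-1 was found at 2 of 30 MS-275 gained member summits (6.67%), at Ccr4 and Ccl3, beside 2.79% of the list. STAT was found at 2 (6.67%), at Ccl3 and Cx3cr1, beside 6.27%, and PU.1 at 1, at Cxcr4, beside 1.83%.

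An NF-kB match at Cxcr4 and a RUNX match at Ccl9 made up the rest, 1 each, beside 1.6% and 2.63%. No interferon response match was found in the windows of Cxcl9, Cxcl10 or Cxcl11, or of any other gained member, where 2.71% of the list held 1. Of the MS-275 lost summits, 1 of 5 held AP-1, beside 18.1% of the list, and this match at the edge of the Cx3cr1 window was outside the CXD101 window, which was shifted by 19 bases. The median G+C content of gained member windows was 50%, beside 49.8% over the list.

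Signalling genes downstream of the receptors, a list of 58 that includes G proteins, arrestins, kinases and Rac regulators, had 20 genes (34.5%, beside 18.8% of coding genes) near 48 MS-275 gained peaks. The highest in significance were at Ptk2b, a kinase of adhesion signalling (91.8 against 21.6 tags, −log10 p 28.6), and Rac2, the leukocyte GTPase for movement (136 against 48.8). Next were Arrb2 (105 against 33.2) and the G protein subunit genes Gng2 (101 against 32.2) and Gna13 (63 against 14.2). None of the 58 had a CXD101 gained peak, where only 0.97% of coding genes did. Of the 58, 6 (10.3%, beside 2.93%) had an MS-275 lost peak and 10 (17.2%, beside 3.65%) a CXD101 lost peak. The strongest of the last was at Prkcd, a protein kinase C gene, with 139 tags under vehicle and 50.7 under CXD101. In the direct comparison 11 genes (19%, beside 6.68%) lay near a site higher with MS-275. The window lengths of the 58 genes are not given here, and a longer gene can collect more peaks. The gained peak counted for Cxcl16 above was counted again for Arrb2.

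Since the lists hold differences only, the identity of the sorted cells could not be read from them. The monocytic markers Fcgr1, Itgam and Ly6c2 each lay near an MS-275 gained peak, and of the neutrophil markers 4 of 6 (Ly6g, Mpo, S100a8, S100a9) did, near 18 peaks, where 18.8% of coding genes had such a peak. Macrophage markers had 3 of 6 genes near 4 peaks, dendritic cell markers 1 of 4, the T cell markers Cd3d, Cd3e and Cd3g 1 shared peak, endothelial markers 2 of 3 near 14 peaks and fibroblast markers 1 of 3. Markers of B cells, NK cells and hepatocytes had 0 gained peaks. No marker of any list had a CXD101 gained peak, where only 0.97% of coding genes did. Itgam, Itgax and Cd3g each lay near 1 peak lost under either inhibitor, and the endothelial Kdr near 1 lost under CXD101. Gains at markers of other cell types thus accompanied those at the chemokine genes, and their part in them was not tested.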

How the data were processed

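ATAC-seq was performed on 6 libraries of sorted tumor M-MDSCs, 2 per group, with groups taken from the treatment labels. Strain, age, tumor and dosing were taken from the study's methods. Reads were aligned to mm10 with Bowtie2 and compared with MACS2 2.2.7.1, per the submitters' processing notes. According to the study's methods no model or read shift was used, so a summit can be displaced from the transposase cut. The size of that displacement is not known here, which also limits the motif search. The authors pooled the libraries of a group before calling. The deposited fold enrichment is a linear ratio of treated to control level at the summit. The deposited −log10 p-value comes from a Poisson test, and the deposited −log10 q-value is its adjusted form. The summit was deposited as another number, an offset from the peak start. No −log10 q-value was below 1.3, which is a q-value limit of 0.05, whereas the study's methods give a limit on the p-value.

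Here, peaks were assigned to genes with GENCODE M21 (Python 3.11.15, numpy 2.4.6, pandas 2.3.3, scipy 1.17.1), and bases were read from GRCm38 (RefSeq) with pysam 0.24.0. All 53 genes were matched in RefSeq at the same place. A peak was counted when at least 1 base overlapped the gene or 20 kb either side. Each summit was 1 peak. Treated tags and control levels were solved from each peak's fold enrichment and p-value with the MACS2 pseudocount of 1 and the group scaling, and all 11800 peaks gave a solution, with 1 solution at every member peak. In tests on simulated peaks for 4 of the lists, 99.9% to 100% were recovered. MACS2 takes as control level the largest among local averages, which overstates the control at the summit where they differ. Exact 95% Poisson intervals cover counting error only, and reads are not independent molecules. The number of reads per library was not analysed here.

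Full values were given for the 10 member peaks of highest −log10 p in each list against vehicle, for peaks in the 5 kb upstream of a member start, for the 5 highest of the direct list, for peaks in both inhibitors' lists of one direction, and for Ccr2. Other member peaks were added by value. The members, lists and rules were chosen with earlier results of these data known. No test between groups, set test or random list was used. Other windows, thresholds and gene assignments were tried as alternatives. The count over the monocytic marker list is not reported here.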

Additional observations from a re-analysis of the deposited data

Results flagged for a closer look

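Of the 30 member peaks gained under MS-275 over vehicle, 9 also overlapped a site where the MS-275 group exceeded the CXD101 group, so the effect against the same vehicle differed between the inhibitors at these intervals. For 1 of the 9, the weaker Cxcr5 summit, the overlap came only from its shared interval, and the summit itself lay outside the direct peak. The sites lay near Cxcl9, Cxcr5, Ccr1, Ccl11, Ccl9 (2 sites), Ccl3 and Ccr6. The difference was tested only by MACS2 on the pooled libraries, without replicates, and at Ccr1 its −log10 q was 1.75, close to the limit of the list.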

How the results depend on the processing

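Counts depended mostly on how far from a gene a site was taken. For MS-275 gained, 5 kb either side left 17 peaks at 11 genes, 50 kb gave 31 genes, the gene with 5 kb upstream left 9 peaks at 7 genes, and requiring a member's start to be the nearest coding start left 18 peaks. For MS-275 lost, 5 kb either side, 5 kb upstream, the nearest start, distinct intervals and RefSeq gene models (added after seeing the data) each left 3 of 5 peaks. For CXD101 lost, the nearest start and RefSeq models each left 1 of 3 peaks. For MS-275 over CXD101, the counts were 4 peaks at 3 genes (5 kb), 15 peaks at 21 genes (50 kb), 1 peak at 1 gene (5 kb upstream) and 4 peaks at 3 genes (nearest start), and at 5 kb upstream the member share of 1.89% was below the 3.6% of coding genes. At 50 kb the CXD101 lost share of 5.66% was also below the 6.34% of coding genes. CXD101 gained and CXD101 over MS-275 stayed at 0 under every alternative run. Few coding genes had such peaks either, 0.97% and 0.0138% with 20 kb either side. A q-value under 0.01 or 0.001, a fold of at least 2, and the summit inside the window moved none of 12 counts each by over 1.5 times. Over all annotated genes, the CXD101 lost background was 2.33% and that of CXD101 over MS-275 0.00743%. No paired analysis was possible because libraries of a group were merged before calling, and for the same reason no library could be left out. Differences among sites of low vehicle level, such as 6.6 tags at Ccr1, were limited by depth.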
